A study of Mus musculus with 3 samples.

Results

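The genes described here are the Wnt ligands, their receptors and co-receptors, the R-spondins and Lgr receptors, the secreted antagonists, and Axin2 and Lef1. They were chosen by gene symbol and came to 50 of the 46983 genes in the count table. All 50 were found in the GENCODE M21 annotation of the GRCm38 mouse genome, on 15 chromosomes, each as a protein-coding gene. The class sizes were 19 Wnt genes, 10 Frizzled genes, 2 LRP genes, 4 R-spondin genes, 3 Lgr genes, 5 genes of the Sfrp and Frzb family, 4 Dickkopf genes, Wif1, and the target genes Axin2 and Lef1.

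The 3 libraries came from cells of the leptomeninges, the inner membranes of the brain, that were dissected from vehicle-treated mice, dissociated and sorted, and are labelled as the pia-enriched fraction. What the vehicle was given for, the gate of the sort, and the animals' age, sex, strain and genotype are not given in the sources used here, nor whether each library was a separate animal. All libraries belong to 1 group, so no treatment could be compared, and p-values below measure only the spread between these samples, which may be technical. RNA was amplified as cDNA with a template-switching kit before sequencing.

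Wnt proteins are secreted lipid-modified ligands that bind Frizzled receptors together with the co-receptors Lrp5 or Lrp6. In the canonical branch this stops the destruction of beta-catenin, which then acts with factors of the Tcf and Lef family on target genes such as Axin2. Sfrp proteins, Frzb and Wif1 bind Wnt ligands outside the cell, most Dickkopf proteins block the LRP co-receptors, and R-spondins, through Lgr receptors, keep Frizzled receptors on the cell surface. In the developing meninges Wnt signals take part in the growth of the brain's blood vessels and of the overlying skull.

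Libraries 1, 2 and 3 held 21002860, 28704952 and 25338616 gene counts. Library 1 stood apart from the other libraries. Over 14409 genes its median absolute log2 ratio was 0.49 to library 2 and 0.45 to library 3, against 0.28 between libraries 2 and 3. Its ratio to the other libraries followed the GC content of the transcript (Spearman coefficient 0.608 across 14375 genes, which are not independent replicates). Levels of Xist, which female cells transcribe, were 35.7, 0.202 and 0.733 CPM in libraries 1, 2 and 3, and those of the Y-linked gene Ddx3y 19.9, 175 and 129 CPM. Library 1 thus held Xist and Y-linked transcripts together, whereas Xist was low in libraries 2 and 3. A difference of library 1 and a difference of sex cannot be told apart here. The fibroblast markers were abundant in every library, with Col1a2 at 11071, 12569 and 10851 CPM. Of 8 leptomeningeal fibroblast markers 7 had a mean of at least 1 CPM, and Lama1 had no count in library 1. That list summed to 696, 573 and 676 CPM per kilobase in libraries 1, 2 and 3. The 4 dural fibroblast markers (Fxyd5, Foxp1, Mgp and Crabp2) all had a mean of at least 10 CPM and summed to 11419, 5025 and 8001 CPM per kilobase, most of it Mgp, a matrix protein gene that other cell types also express. CPM here is counts per 1000000 gene counts on library sizes scaled by TMM, and a level compared between genes is given as CPM per kilobase of exon.

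A small number of secreted antagonists made up most of the module. Sfrp4 and Dkk3 together stood far above every Wnt ligand and receptor, Rspo3, Fzd7 and Lrp6 followed, and no single Wnt gene dominated in all libraries. Of the 50 members, 32 (64%) had a mean of at least 1 CPM, against 30.2% of all genes in the table. A mean of at least 10 CPM was found in 18 (36%), against 19.2% of all genes. A further 5 members, Wnt1, Wnt3a, Wnt8b, Wnt9b and Rspo4, had no count in any library (10%, against 46.6% of all genes). The filter on low counts, at least the equivalent of 10 counts in every library, passed 32 members (64%, against 30.7% of all genes). All 50 members are protein-coding, while the table also holds noncoding genes, so these shares do not compare like genes. Lef1, with a mean of 0.902 CPM, passed this filter, and Rspo2, with a mean of 1.56 CPM, did not.

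Promoter windows from RefSeq on GRCm38.p6 were found for 33 members. The members without a window included Sfrp4, Dkk3 and Rspo3, the most abundant per kilobase, and Lrp6. The windows ran from 250 bases before to 50 after a transcript start. They were searched on both strands for the 7-letter core that Tcf and Lef factors recognise, CTTTG followed by AA, AT, TA or TT. A match stood in 4 of the 33 windows (12.1%), those of Fzd7, Wnt11, Wnt3 and Dkk1, against 16.9% of the windows of 27025 genes. For a member the window nearest its GENCODE start was taken, and for the 27025 genes the first one listed. Over all 32851 windows the share was also 16.9%. The window of Fzd7 is shown as that of the most abundant Frizzled gene, Axin2 as the classical target gene, and Wnt2 as the member that differed between libraries. Each is written from 5′ to 3′ on the strand of its gene, with matches in capitals. They lie at chr1:59481897-59482196 (plus strand), chr11:108920099-108920398 (plus strand) and chr6:18030396-18030695 (minus strand).
Fzd7: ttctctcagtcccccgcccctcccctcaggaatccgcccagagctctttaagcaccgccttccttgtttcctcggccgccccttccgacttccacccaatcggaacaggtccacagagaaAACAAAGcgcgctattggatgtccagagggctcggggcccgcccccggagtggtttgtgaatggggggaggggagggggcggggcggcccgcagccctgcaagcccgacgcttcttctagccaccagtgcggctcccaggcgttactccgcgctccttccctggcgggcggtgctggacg
Axin2: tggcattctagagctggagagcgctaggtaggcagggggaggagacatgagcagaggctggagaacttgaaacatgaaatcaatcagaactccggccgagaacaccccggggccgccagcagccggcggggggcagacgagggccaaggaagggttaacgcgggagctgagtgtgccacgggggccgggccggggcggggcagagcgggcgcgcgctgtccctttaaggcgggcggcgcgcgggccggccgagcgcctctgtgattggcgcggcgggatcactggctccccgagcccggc
Wnt2: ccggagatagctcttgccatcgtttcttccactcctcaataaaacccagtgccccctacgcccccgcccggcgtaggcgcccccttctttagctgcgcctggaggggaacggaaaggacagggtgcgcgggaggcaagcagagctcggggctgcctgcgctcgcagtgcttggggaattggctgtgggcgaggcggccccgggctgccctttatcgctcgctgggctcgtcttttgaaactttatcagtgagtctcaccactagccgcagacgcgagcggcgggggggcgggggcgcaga
The match of Fzd7 starts at position -130 relative to the RefSeq start, which lies 277 bases from the GENCODE start of the gene. The windows of Axin2 and Wnt2 hold none of these words. A match is a description of letters and not a binding site, and the counts here do not measure binding.

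**Figure D1:**
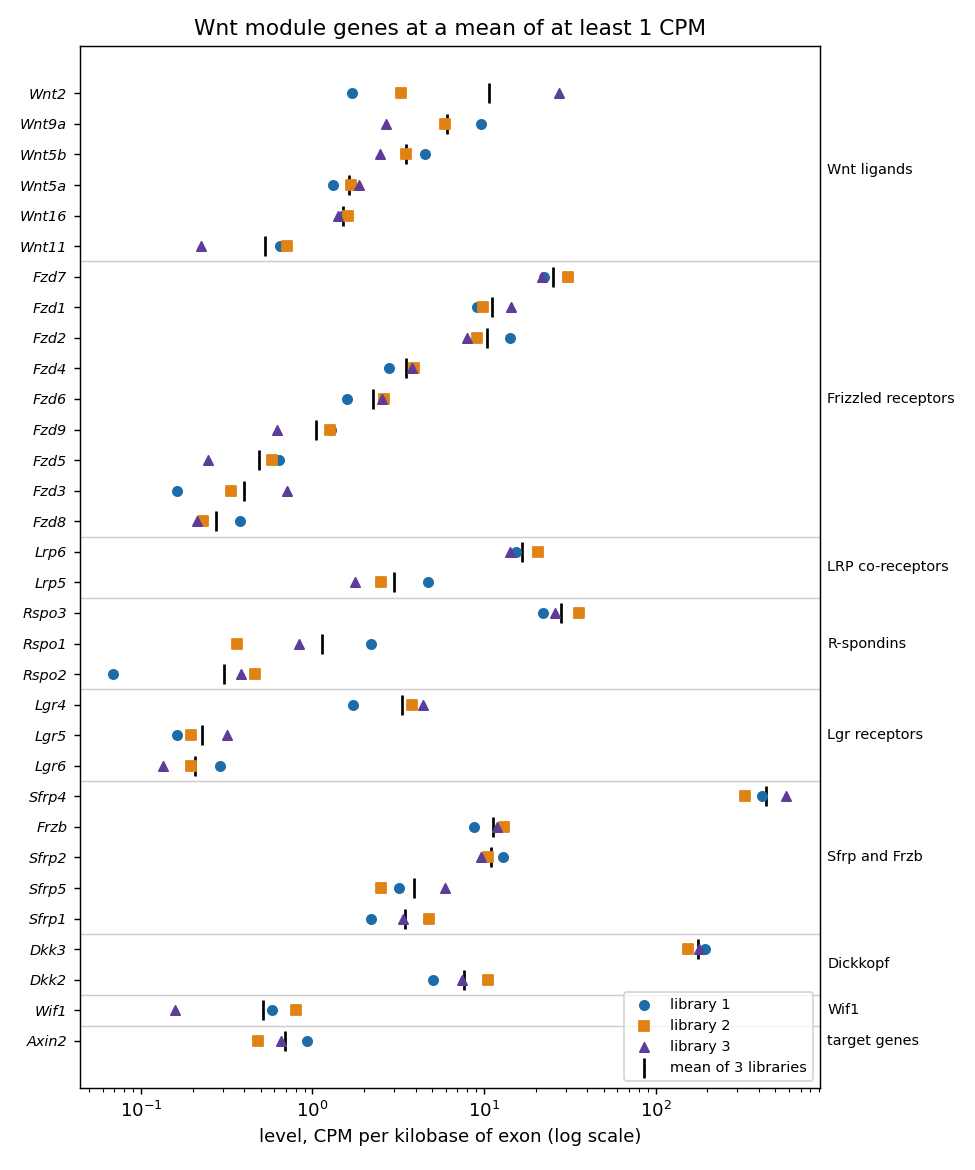
Level of each of the 32 members with a mean of at least 1 CPM, in CPM per kilobase of exon on a log scale, grouped by class. Points are the 3 libraries and the vertical tick their mean; Sfrp4 and Dkk3 lie to the right of all other members, and Wnt2 has the widest spread.

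Few Wnt ligands were detected at more than low levels. In all, 6 of 19 Wnt genes had a mean of at least 1 CPM, and the class summed to 25.0 ± 10.8 CPM per kilobase (SD, n = 3). The 6 were Wnt2, Wnt9a, Wnt5b, Wnt5a, Wnt16 and Wnt11. Wnt2 (ENSMUSG00000010797.6, chromosome 6, 17988940 to 18030585), a ligand of the canonical branch known from lung and vessel development, measured 3.84, 7.43 and 61.5 CPM in libraries 1, 2 and 3. Library 3 was 16.0 times library 1 and 8.28 times library 2.

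Wnt9a (ENSMUSG00000000126.11, chromosome 11, 59306928 to 59333552), which acts in joint and skeletal development, was at 32.0, 19.7 and 8.95 CPM in libraries 1, 2 and 3. It was thus lowest in the library in which Wnt2 was highest. Wnt5a (ENSMUSG00000021994.14, chromosome 14, 28504750 to 28527448), the main ligand of the branches independent of beta-catenin, was at 10.4, 13.2 and 14.6 CPM. Wnt5b, a close relative of Wnt5a, was at 12.0, 9.38 and 6.59 CPM, a mean of 9.31 ± 2.69 (SD, n = 3). Wnt16 was at 6.56 ± 0.447 CPM and Wnt11 at 2.18 ± 1.09 CPM (SD, n = 3). Per kilobase, Wnt5b was above Wnt5a in all 3 libraries, by 3.41, 2.09 and 1.33 times.

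The remaining 13 Wnt genes were below a mean of 1 CPM, and 9 of them had at least 1 count. Wnt4 was at 0.969, Wnt6 at 0.814, Wnt2b at 0.537, Wnt7b at 0.269 and Wnt3 at 0.248 CPM. Wnt7a, Wnt10a, Wnt8a and Wnt10b had means of 0.188, 0.0930, 0.0763 and 0.0425 CPM. Wnt7b had 16 counts in library 1 and 0 in libraries 2 and 3. For the genes without a count, 3 counts, the limit that a count of 0 allows, are 0.152, 0.101 and 0.116 CPM in libraries 1, 2 and 3; these limits cover counting error only, since amplified reads without molecular identifiers are not independent molecules.

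Some Wnt genes stand as close neighbours in the genome. The 4 pairs closer than 100 kb, each with 0 coding genes between, were Wnt3a and Wnt9a, Wnt6 and Wnt10a, Wnt9b and Wnt3, and Wnt10b and Wnt1. Wnt9a, at a mean of 20.2 CPM, lies 16.2 kb from Wnt3a, which had no count. In the other 3 pairs both genes were below a mean of 1 CPM, and no difference is read from them.

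The make-up of the ligand transcripts differed between libraries. Wnt2 took 8.40% of the summed ligand level per kilobase in library 1, 19.0% in library 2 and 72.9% in library 3. Wnt9a took 47.4%, 34.0% and 7.18%, and Wnt5b 22.2%, 20.4% and 6.64%. Without Wnt2 the class summed to 18.6, 14.1 and 10.1 CPM per kilobase, so that library 3, highest with Wnt2 (37.4), was lowest without it.

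**Figure D2:**
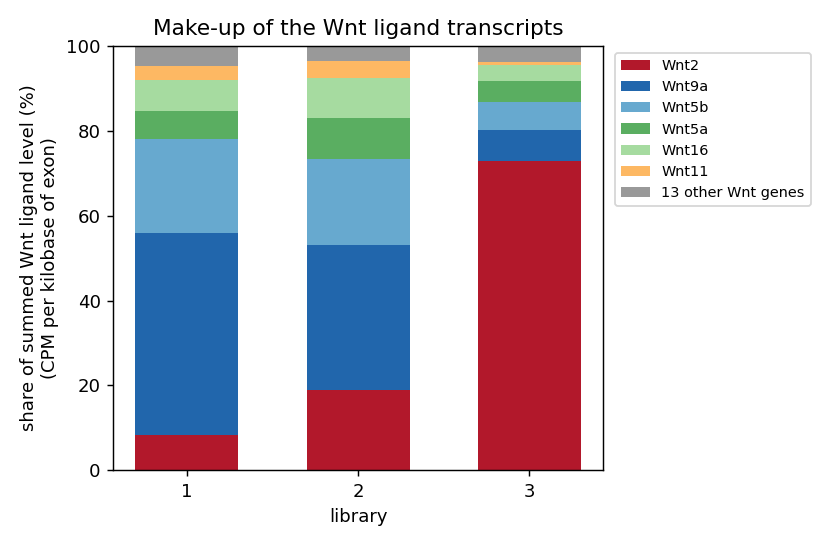
Share of the summed Wnt ligand level (CPM per kilobase of exon, in percent) taken by each Wnt gene in libraries 1, 2 and 3. Wnt9a holds 47.4% in library 1, and Wnt2 holds 72.9% in library 3.

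Wnt2 was the only member called variable between libraries. The test was edgeR's goodness-of-fit test, which asks whether counts differ between the libraries beyond the dispersion typical of genes at that level. It called 1 of 32 tested members (Wnt2, Benjamini-Hochberg adjusted p = 6.754e-05 over 14409 genes) against 63 of all genes tested (0.437%, or 0.229% for genes called and highest in library 3). At an unadjusted p under 0.05 there were 2 members, Wnt2 and Rspo1, against 7.04% of genes. The lowest adjusted p of any other member was 0.601, for Rspo1, in edgeR's test. Without library 3 the adjusted p of Wnt2 was 0.998 in edgeR, and without library 1 or library 2 it was 1.558e-06 and 0.003466, so the call rests on library 3. The range over all alternatives with 3 libraries was 1.615e-10 to 0.0004046.

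Markers of other cell types also differed between the libraries. Macrophage and microglia markers summed to 8.12, 165 and 478 CPM per kilobase in libraries 1, 2 and 3, and edgeR called 7 of their 7 tested genes. None of the 8 genes of that list was at 0 over all libraries. Choroid plexus markers summed to 45.8, 1666 and 2593 CPM per kilobase (4 of 7 tested genes called), and lymphocyte markers to 1.56, 29.3 and 32.3 (2 of 2 called). Mural markers summed to 1051, 844 and 1717 CPM per kilobase and Schwann cell markers to 833, 763 and 1241, with 0 of 6 and 0 of 5 genes called at an adjusted p and 1 of each list at an unadjusted p under 0.05 in edgeR. All 6 mural and all 5 Schwann cell genes were highest in library 3, as Wnt2 was. So were all 7 tested macrophage and microglia genes, all 3 tested oligodendrocyte genes and all 2 tested lymphocyte genes. Of the other lists, 5 of 7 choroid plexus, 4 of 5 astrocyte, 3 of 6 endothelial, 2 of 5 neuron, 1 of 2 ependymal and 1 of 4 arachnoid barrier genes were highest there. It was 0 of 6 fibroblast, 0 of 7 leptomeningeal fibroblast, 0 of 4 dural fibroblast and 0 of 4 erythroid genes. Library 3 was highest in 8 of 32 tested members (25%). The share of all tested genes highest there was not computed. Without it, neither this count nor those of the lists shows a departure from other genes. The summed endothelial markers, at 20.1, 14.8 and 17.0 CPM per kilobase, and the summed fibroblast markers, at 3122, 3862 and 3317, were not highest in library 3. The summed astrocyte markers, at 260, 215 and 166, were lowest in library 3. Nearly all of that sum was Gjb6 (mean 206 of 214 CPM per kilobase), at 678, 559 and 419 CPM. The 4 astrocyte genes other than Gjb6 were highest in library 3, so the sum describes Gjb6 and not the list. Summed oligodendrocyte markers, at 136, 103 and 181 CPM per kilobase, and summed neuron markers, at 15.4, 18.9 and 19.4, were highest in library 3. The part of any of these cells in the Wnt2 difference was not tested, and in bulk samples fewer cells of a type and less RNA per cell cannot be told apart.

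**Figure D3:**
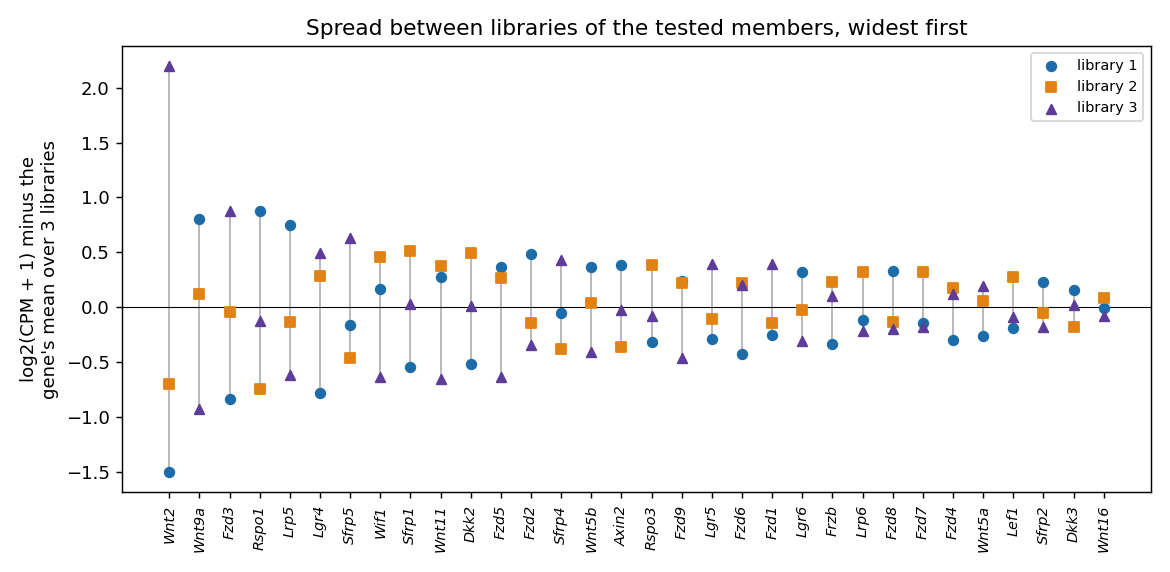
Deviation of each library from the gene's own mean, on the log2(CPM + 1) scale, for the 32 tested members ordered by range. Wnt2 spans 3.69 log2 units, and Wnt16, at the right, spans 0.17.

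As a set, with Wnt2 included, the tested members varied about as much between libraries as other genes. The median range over the 3 libraries was 0.73 log2 units for the 32 tested members and 0.67 for all 14409 tested genes. Library 3 was lowest in 14 of 32 members (43.8%), against 27.2% of all tested genes. Library 1 was lowest in 13 (40.6%, against 40.4%), and library 2 in 5 (15.6%, against 32.3%). Members low in library 3 included Wnt9a, Wnt11, Lrp5, Fzd5 and Wif1.

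The Frizzled receptors were led by Fzd7. The class summed to 54.6 ± 3.74 CPM per kilobase (SD, n = 3), and 9 of 10 genes had a mean of at least 1 CPM. Fzd7 (ENSMUSG00000041075.8, chromosome 1, 59482424 to 59486955), a receptor of canonical signals and a gene of 1 exon, was at 101, 140 and 99.3 CPM in libraries 1, 2 and 3. It took 45.7% ± 5.99 of the summed Frizzled level per kilobase. Fzd7 was above Fzd1 per kilobase in every library, by 2.46, 3.16 and 1.53 times.

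Fzd1 and Fzd2, which belong with Fzd7 to 1 branch of the family, came next. Fzd1 was at 38.2, 41.2 and 60.0 CPM, highest in library 3. Fzd2 was at 52.2, 33.4 and 29.0 CPM, highest in library 1. Per kilobase their means were 11.1 ± 2.82 and 10.4 ± 3.36 (SD, n = 3), and the ranges of the libraries overlapped. Together Fzd7, Fzd1 and Fzd2 held the larger part of the Frizzled transcripts in all 3 libraries.

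Fzd4, the receptor for the vessel factor Norrin as well as for Wnt proteins, was at 18.7, 26.4 and 25.4 CPM. Fzd6, a receptor known from planar cell polarity in skin and hair, was at 7.63, 12.5 and 12.3 CPM. Both were lowest in library 1. The other Frizzled genes were at 5.15 ± 3.57 CPM (Fzd3), 3.37 ± 1.47 CPM (Fzd5), 2.42 ± 0.857 CPM (Fzd9) and 1.64 ± 0.550 CPM (Fzd8), and Fzd10 was at 0.139 CPM (SD, n = 3). Another gene with overlapping exons, Gm38058, had 14, 38 and 6 counts beside the 87, 120 and 44 of Fzd5. Exons of 9 members overlapped those of another gene, among them Fzd5, Wnt5a, Rspo3 and Sfrp2. Without a known strand setting reads of such an overlap cannot be told apart.

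Of the co-receptors, Lrp6 was the more abundant. Lrp6 (ENSMUSG00000030201.15, chromosome 6, 134446476 to 134566965) was at 209, 283 and 195 CPM and Lrp5 (ENSMUSG00000024913.16, chromosome 19, 3584828 to 3686564), known for its role in bone mass and in retinal vessels, at 46.1, 24.5 and 17.2 CPM. Per kilobase, Lrp6 was above Lrp5 by 3.23, 8.23 and 8.06 times, with no overlap between libraries. The smaller ratio of library 1 went with a higher Lrp5 there.

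R-spondin transcripts were nearly all Rspo3. Rspo3 (ENSMUSG00000019880.9, chromosome 10, 29452416 to 29535867), an enhancer of Wnt signalling needed for vessel development, was at 67.9, 111 and 80.2 CPM and took 94.6% ± 3.62 of the class per kilobase (SD, n = 3). It was the third most abundant member per kilobase, at 27.9 ± 7.17, and its range overlapped that of Fzd7, at 25.1 ± 5.10. Rspo1 was at 4.24, 0.706 and 1.62 CPM, highest in library 1, and Rspo2 at 1.56 ± 1.06 CPM (SD, n = 3).

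Lgr4, the R-spondin receptor found in many tissues, was the main member of its class. It was at 10.2, 22.4 and 25.9 CPM, lowest in library 1, and took 86.9% ± 6.54 of the summed Lgr level per kilobase (SD, n = 3). Lgr5 and Lgr6, known as stem cell markers of several epithelia, were at 2.32 ± 0.847 and 1.41 ± 0.526 CPM. Rspo3 was 12.7, 9.42 and 5.89 times Lgr4 per kilobase in libraries 1, 2 and 3.

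Among the secreted antagonists, Sfrp4 stood first. Sfrp4 (ENSMUSG00000021319.6, chromosome 13, 19623104 to 19632994), a frizzled-related protein known for its role in bone, was at 1735, 1385 and 2420 CPM in libraries 1, 2 and 3, with library 3 highest. Per kilobase it was at 442 ± 126 (SD, n = 3), rank 85 of the 24953 genes with a count and a length. It took 93.4% ± 1.77 of the level of its class and 55.3% ± 6.30 of that of all 50 members.

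The other members of this class were much lower, although they bind Wnt proteins through the same kind of cysteine-rich domain. Frzb was at 28.2, 42.1 and 38.6 CPM, Sfrp2 at 27.8, 22.7 and 20.7 CPM and Sfrp1 at 9.65, 21.0 and 14.8 CPM. Sfrp5 was at 7.39 ± 3.45 CPM (SD, n = 3). Per kilobase, Frzb (11.2 ± 2.24) and Sfrp2 (11.0 ± 1.69) overlapped between libraries.

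Dkk3 (ENSMUSG00000030772.5, chromosome 7, 112116017 to 112159057) was the second most abundant member, at 656, 521 and 599 CPM. It is a divergent Dickkopf protein whose action on the LRP co-receptors is disputed. Per kilobase it was at 176 ± 20.3 (SD, n = 3), rank 265, and Sfrp4 was above it by 2.13, 2.14 and 3.25 times, with no overlap between libraries. Dkk2, which binds Lrp5 and Lrp6, was at 18.8, 38.9 and 27.6 CPM. Dkk1, the best known inhibitor of the family, had 0, 5 and 0 counts, and Dkk4 had 0, 1 and 0. Wif1, which binds Wnt proteins directly, was at 1.25 ± 0.795 CPM (SD, n = 3).

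Summed per kilobase, the 10 antagonists exceeded the 19 Wnt ligands by 31.7, 30.5 and 21.3 times in libraries 1, 2 and 3, a log2 ratio of 4.78 ± 0.32 (SD, n = 3). Most of this was Sfrp4 and Dkk3. Without these 2 genes the log2 ratio was 0.67 ± 0.62, and the libraries gave 1.61, 2.44 and 1.03 times. The antagonists left then summed to 37.8 ± 4.83 CPM per kilobase and overlapped in part with the ligands (17.4 to 37.4). No test was made of these sums, because the members were chosen with earlier results of these data known.

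**Figure D4:**
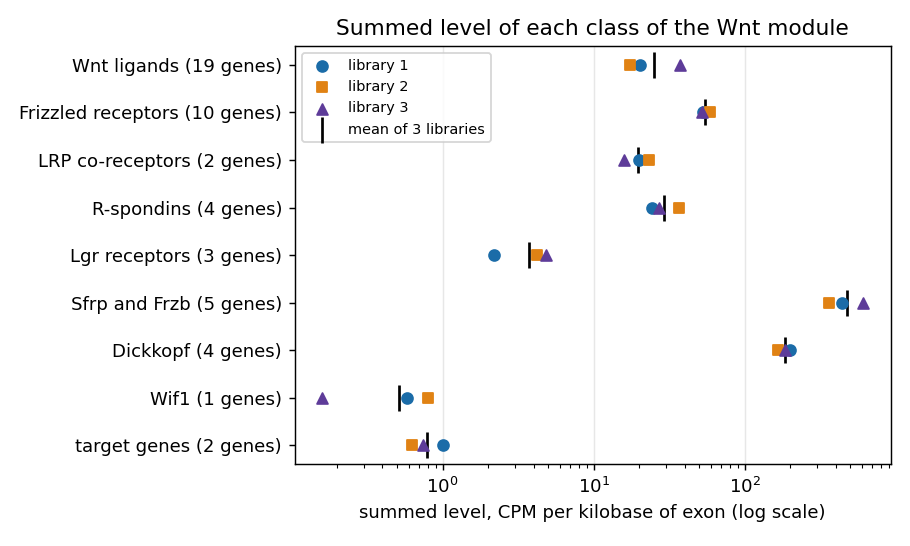
Summed level of each class in CPM per kilobase of exon, on a log scale, in the 3 libraries, with the mean as a vertical tick. The Sfrp and Frzb class (mean 472) and the Dickkopf class (mean 184) lie above the receptors (54.6) and the Wnt ligands (25.0).

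Most neighbours in the order of levels were not separated by these libraries. Of 31 neighbouring pairs among the 32 members with a mean of at least 1 CPM, 4 did not overlap between libraries in CPM per kilobase: Sfrp4 over Dkk3, Dkk3 over Rspo3, Fzd7 over Lrp6 and Lrp6 over Frzb. The other 27 pairs overlapped, among them Fzd6 and Wnt5a, which held the same order in all 3 libraries. The separation of Fzd7 from Lrp6 depends on the length used. The joined exons of Lrp6 come to 13672 bp and its longest transcript to 9368 bp, and the order was computed only with the former.

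The target genes among the members, Axin2 and Lef1, were low. Axin2 (ENSMUSG00000000142.15, chromosome 11, 108920349 to 108950783), induced by beta-catenin in most tissues and itself a brake on the pathway, was at 3.81 ± 1.26 CPM (SD, n = 3), with 5.15, 2.65 and 3.62 CPM in libraries 1, 2 and 3. Lef1, a transcription factor of the pathway and often its target, was at 0.902 ± 0.330 CPM. Per kilobase, Axin2 (0.692 ± 0.229) lay at percentile 49.5 and Lef1 (0.103 ± 0.0376) at percentile 25.8 of all genes with a count. These percentiles depend on the length used. The joined exons of Lef1 come to 8788 bp, and its longest transcript to 3656 bp.

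Other genes of the pathway were taken from 7 lists that hold 70 genes and no member. Of these, 64 passed the filter, against 30.7% of all genes in the table. A mean of at least 1 CPM was found in 64, against 30.2% of all genes. EdgeR's goodness-of-fit test called 0 of the 64 at an adjusted p, against 0.437% of all tested genes. At an unadjusted p under 0.05 in that test there were 4 of the 64, against 7.04% of all tested genes. The names below are the 3 most abundant of each list per kilobase, with some further genes named outside that rule.

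Genes for making and releasing ligands were present. Wls, the carrier that takes Wnt proteins to the cell surface, was at 348 ± 143 CPM (SD, n = 3). Porcn, which adds the lipid, was at 45.0 ± 13.3 CPM, and Trabd2b, a protease that inactivates Wnt proteins, at 81.1 ± 8.01 CPM. Notum, an enzyme that removes the lipid and is often induced by the pathway, was at 0.454 CPM.

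Of 11 other receptors and co-receptors 10 had a mean of at least 1 CPM, led by the glypicans Gpc3 (502 ± 120 CPM) and Gpc4 (56.1 ± 6.20 CPM) and by Reck (59.3 ± 7.90 CPM; SD, n = 3), a partner in the reception of Wnt7 signals. Of 10 other secreted or membrane regulators 8 reached 1 CPM, led by Igfbp4 (654 ± 148 CPM), Shisa3 (358 ± 151 CPM) and Sostdc1 (45.1 ± 31.3 CPM). Sost, the antagonist of bone, was at 0.0634 CPM.

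Within the cell, all 11 genes of the destruction complex and its transducers reached 1 CPM. Ctnnb1, which encodes beta-catenin, was at 209 ± 13.8 CPM, Csnk1a1 at 126 ± 70.1 CPM and Btrc at 112 ± 27.7 CPM (SD, n = 3). All 12 nuclear effectors reached 1 CPM, and per kilobase Tcf7l2 (12.2 ± 3.10), Pygo2 (11.2 ± 3.51) and Bcl9l (6.24 ± 2.68) led. Of the DNA-binding factors, Tcf7l2 was thus above Tcf7l1 (4.87 ± 0.682), Tcf7 (0.913 ± 0.315) and Lef1 (0.103 ± 0.0376) in mean level per kilobase.

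Of 12 genes of the planar polarity and calcium branches 11 reached 1 CPM, led by Nfatc1 (39.5 ± 2.85 CPM), Prickle1 (20.5 ± 7.31 CPM) and Daam2 (38.1 ± 14.3 CPM; SD, n = 3). Of 10 widely used beta-catenin targets 9 reached 1 CPM. Wisp2 (169 ± 49.9 CPM), Myc (63.1 ± 14.6 CPM) and Tnfrsf19 (34.1 ± 10.5 CPM) led, of which Myc is also controlled by many other signals. The mean of Wisp1 was 38.6, of Cd44 37.0, of Nkd2 20.6, of Bambi 18.8, of Ccnd1 15.4 and of Nkd1 5.69 CPM. Sp5, a direct target in many tissues and the only gene of the list below 1 CPM, was at 0.104 CPM.

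Library 1 differed from the others along GC content in the members as in all genes. The difference of library 1 from the mean of libraries 2 and 3 had a Spearman coefficient of 0.624 with GC content over the 32 tested members, which share the same libraries, beside 0.608 over all genes. Its median was -0.12 log2 units in the members and -0.0048 in all tested genes. After removal of the trends with GC content and exon length the medians were 0.095 and 0.036. Wnt2, with a GC content of 52.1%, lay at -2.25 before and -2.53 after the removal. Sfrp4 moved from -0.077 to 0.46, Lrp6 from -0.17 to 0.33 and Rspo3 from -0.47 to 0.057, so the direction of library 1 in these genes turned with the removal. In all it turned in 8 of the 32 tested members, 4 with a mean of at least 10 CPM (these 3 and Sfrp2, from 0.34 to -0.0019) and 4 below it. Of the latter, Wnt16 moved from -0.0089 to 1.10, although its CPM values differed little between libraries. Lgr5 moved from -0.43 to 0.16, Lef1 from -0.28 to 0.15 and Fzd9 from 0.36 to -0.12.

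**Figure D5:**
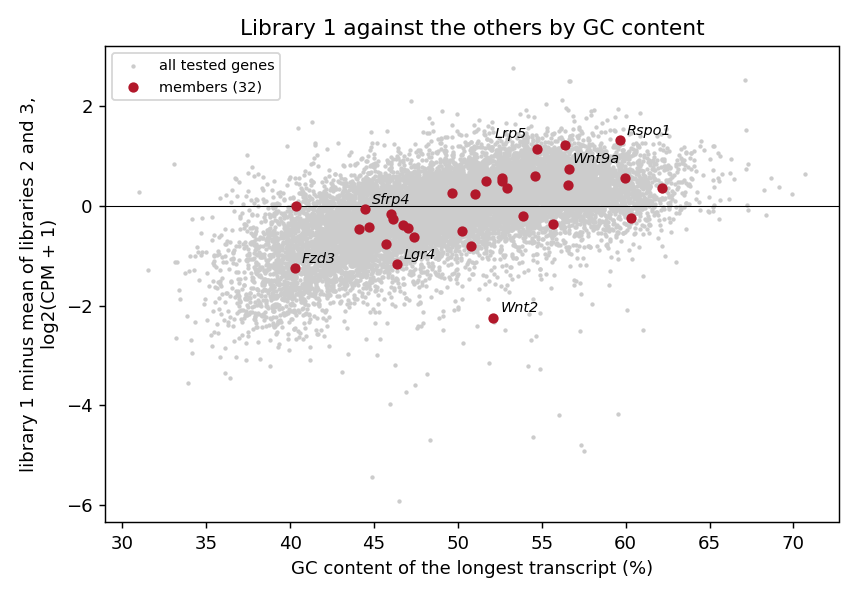
Difference of library 1 from the mean of libraries 2 and 3 in log2(CPM + 1), against the GC content of the longest transcript in percent. Grey points are all tested genes and red points the 32 tested members, of which Wnt2 lies lowest at -2.25.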

How the data were processed

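Whole-number counts per gene were used as deposited. Reads were counted with HTSeq 0.5.3 on mm10, per the submitters' processing notes, which also name DESeq2 1.22.1; the aligner, annotation release and strand setting are not given in the sources used here. The labels name a normalized table, whereas the deposited values were raw counts. The 5 rows of reads given to no gene (45.6%, 39.1% and 39.6% of libraries 1, 2 and 3) were left out.

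Library sizes were scaled by TMM and genes filtered with filterByExpr (minimum count 10) in edgeR 4.0.16 under R 4.3.3. With 1 group there is no contrast, so the goodness-of-fit test of edgeR was used with trended dispersions, with Benjamini-Hochberg adjustment over 14409 genes and a threshold of 0.05; it was tested on simulated data. Alternatives used DESeq2 1.42.0 size factors, plain totals, other filters and dispersions, GC content and exon length trends fitted with mgcv 1.9.3, other lengths and pseudocounts, and 2 libraries at a time. Exon lengths and GC content came from GENCODE M21. Log2 values are log2(CPM + 1), which understates differences of low genes.

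Members and lists were chosen with earlier results of these data known. By rule, members with a mean of at least 10 CPM or called variable are given in each library, those from 1 to 10 CPM by mean and SD, and, of each pathway list, the 3 most abundant genes per kilobase and any called. Other pathway genes, genes of the marker lists and members given per library below 10 CPM were named outside it.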

Additional observations from a re-analysis of the deposited data

How the results depend on the processing

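With 3 libraries, Wnt2 was the 1 member called under every alternative run; with each replicate left out in turn the number of members called ranged from 0 to 1, with 0 without library 3, where 1 member had an unadjusted p under 0.05 in edgeR. The number of all genes called (63) was 134 with no filter on low counts and 181 with a filter on a mean of 10 counts, both of which test more genes, and 110 after removal of the GC content and exon length trends, where the cause was not tested. It ranged from 12 to 28 over the 3 fits on 2 libraries, each without a replicate. In alternatives chosen after seeing the data, the log2 ratio of summed antagonists to summed ligands (4.78) was 0.67 without Sfrp4 and Dkk3 and 5.55 without Wnt2. With the median over genes the value was 2.64, but on another measure, the difference between medians of log2(CPM per kilobase + 1). The added 1 understates differences of low genes, as most Wnt ligands were, so 2.64 and 4.78 are not comparable. Removal of the trends turned the difference of library 1 from the other libraries in Lrp6 (-0.17 to 0.33), Rspo3 (-0.47 to 0.057), Sfrp4 (-0.077 to 0.46) and Sfrp2 (0.34 to -0.0019), and, among members below 10 CPM, in Wnt16, Lgr5, Lef1 and Fzd9. The mean log2 level of Wnt2 (3.77 ± 1.94, SD, n = 3) was 2.67 without library 3. No paired analysis was possible because there is only 1 group. Depth limited the low members: 3 counts are 0.152 CPM in library 1.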

Other observations

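Library 3 was high in a few other genes in the way that Wnt2 was. Of the 63 genes called by edgeR, 33 were highest in library 3, and in 7 of these libraries 1 and 2 lay within 2.5-fold of each other while library 3 was at least 3-fold above both, a rule chosen after the values were seen. Besides Wnt2 they were P2ry12, Ackr1, Mmd2, Mlc1, Grem1 and Gpc5. P2ry12, a receptor of microglia, was at 0.960, 1.61 and 23.1 CPM in libraries 1, 2 and 3. Ackr1, a chemokine-binding receptor of venules and red cells, was at 1.62, 2.32 and 19.7 CPM. Grem1, a secreted antagonist of BMP ligands, was at 3.64, 2.32 and 23.8 CPM. Mlc1, known from astrocytes, was at 0.455, 0.638 and 6.82 CPM.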
